A study of Homo sapiens and Mus musculus with 12 samples.

Results

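The NBPF (neuroblastoma breakpoint family) genes were examined in cortical organoids, cell aggregates grown from stem cells in suspension as a model of the early forebrain. The members were the 8 rows of the human count table whose symbols are NBPF1, NBPF3, NBPF9, NBPF10, NBPF11, NBPF12, NBPF14 and NBPF15, out of 22 rows whose symbol starts with NBPF and 60675 gene identifiers in all. All 8 members passed the filter on low counts and were tested among 16956 genes, and all are annotated as protein-coding.

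NBPF proteins are built from repeated Olduvai domains, a protein unit whose copy number rose more steeply in the human lineage than that of other coding sequences. Most copies lie on chromosome 1 in the 1q21 region, where they sit beside the NOTCH2NL genes, human-specific partial copies of the Notch receptor gene NOTCH2, and the family is studied for a link to brain size and neural progenitor growth. NBPF1, the founding member, was found at a chromosome breakpoint in neuroblastoma and has been described as a suppressor of cell growth. The Olduvai domain is also present in PDE4DIP (myomegalin), a centrosome and Golgi protein from which the NBPF genes are thought to derive, and which is related to the centrosome protein CDK5RAP2.

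The 2 groups were organoids of H9, an established human embryonic stem cell line, labelled WT or KO NOTCH2NL. Each group had 3 libraries, and each library was a pool of 5 to 10 organoids taken at week 4, on day 28. The WT libraries carry the line code H9_WT_E2del19 and the KO libraries H9_KO_E5del42. The labels do not explain these codes and name 1 line for each genotype, so genotype and line cannot be told apart. Both groups had been kept on mouse feeder cells and then went through the same differentiation with SB431542, 1 µM Dorsomorphin, 3 µM IWR-1-Endo and 1 µM Cyclopamine, with Neurobasal/N2 medium from day 18 and no Cyclopamine from day 24. Whether the 3 pools within a genotype were grown as independent cultures is not stated, so the p-values measure the spread between these pools, which may be technical.

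Library totals ran from 15381409 to 16382938 counts. The cortical progenitor genes EMX2, PAX6 and LHX2 were present in both groups, at 158 ± 58.7, 177 ± 48.6 and 218 ± 102 CPM (CPM being the read count relative to the TMM-scaled library total) in WT (SD, n = 3). On the second principal component, which held 22.1% of the variance, WT 1 lay at 35 above the other WT libraries at -27.97 and -11.24, and KO 3 at -23.04 below the other KO libraries at 11.46 and 15.78. The row with the symbol NOTCH2NL, named NOTCH2NLA in GENCODE, stands for a single member of the NOTCH2NL genes. It held 4, 5 and 3 reads in the WT libraries and 0 in all 3 KO libraries. It was too low for the filter and was not tested. So few reads cannot show whether NOTCH2NL was lost in the KO libraries, and other NOTCH2NL genes were not examined. With a floor of 3 counts, 0 reads allow a level of up to 0.195 CPM, for counting error alone.

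The start regions of the members were set in pairs of closely alike copies, and these sequences are shown to make that likeness visible. They lie upstream of RefSeq start sites, which need not be the ends of the counted genes. The NBPF14 stretch lies inside the counted NBPF14 gene (148531385 to 148679751). Those of NBPF15 and NBPF11 reach into their genes by a few bases. How reads were assigned was not judged from these stretches. Each line holds bases just upstream of the RefSeq start site of the gene (build GRCh38.p14, chromosome 1, read 5′ to 3′ on the gene's strand), and capitals mark bases that differ from the other gene of the pair. The windows from 250 bases before to 50 bases after the starts of NBPF1 and NBPF3 (chr1:16613565-16613713, minus strand, and chr1:21439963-21440112, plus strand, for the stretches shown) were 87.5% identical over 289 aligned columns, and 14 of the 150 columns shown differ.
NBPF1: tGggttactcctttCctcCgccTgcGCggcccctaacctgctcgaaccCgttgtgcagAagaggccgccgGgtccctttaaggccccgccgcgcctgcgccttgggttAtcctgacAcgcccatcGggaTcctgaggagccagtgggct
NBPF3: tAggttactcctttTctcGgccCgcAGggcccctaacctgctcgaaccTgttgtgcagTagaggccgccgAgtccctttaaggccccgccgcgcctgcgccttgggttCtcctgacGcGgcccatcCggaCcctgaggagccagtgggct
NBPF15 and NBPF9 were 98.3% identical over 291 columns, and the stretch of NBPF15 shown (chr1:144461670-144461819, minus strand) is the same in NBPF9 (chr1:149103562-149103711, minus strand).
NBPF15: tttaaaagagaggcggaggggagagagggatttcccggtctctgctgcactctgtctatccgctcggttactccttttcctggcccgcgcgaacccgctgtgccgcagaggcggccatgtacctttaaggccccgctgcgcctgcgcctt
NBPF12 (chr1:146938174-146938323, plus strand) and NBPF11 (chr1:148152321-148152470, minus strand) were 99.2% identical over 261 columns, and 1 of the 150 columns shown differs.
NBPF12: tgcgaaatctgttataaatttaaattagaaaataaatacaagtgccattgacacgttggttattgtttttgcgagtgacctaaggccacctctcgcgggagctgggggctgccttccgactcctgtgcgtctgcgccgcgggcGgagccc
NBPF11: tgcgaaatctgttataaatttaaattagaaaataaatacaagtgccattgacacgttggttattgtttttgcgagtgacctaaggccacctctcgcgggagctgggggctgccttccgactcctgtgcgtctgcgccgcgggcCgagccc
NBPF10 (chr1:146144805-146144954, minus strand) and the second of the listed starts of NBPF14 (chr1:148595753-148595902, minus strand) were 99.6% identical over 265 columns, again with 1 difference in the stretch.
NBPF10: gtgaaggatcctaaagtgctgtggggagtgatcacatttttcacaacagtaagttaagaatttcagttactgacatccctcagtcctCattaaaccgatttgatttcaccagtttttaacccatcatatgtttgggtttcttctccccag
NBPF14: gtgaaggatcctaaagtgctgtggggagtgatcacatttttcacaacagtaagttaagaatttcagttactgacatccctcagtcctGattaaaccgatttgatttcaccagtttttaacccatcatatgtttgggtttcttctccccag

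The window of NBPF1 was also 80.0% identical to that of NBPF15, over 255 columns, and 77.17% to that of NBPF9, over 276. The window of NBPF3 was 77.59% identical to that of NBPF15, over 232 columns, and 76.45% to that of NBPF9, over 242. Likeness thus also ran across these pairs. The windows of the NBPF1, NBPF3, NBPF15 and NBPF9 starts held 26, 24, 22 and 21 CG dinucleotides, against a median of 14 over all 35116 RefSeq windows. Those of NBPF11 and NBPF12 held 20 and 16, and those of NBPF10 and NBPF14 held 4 each. The listed windows of NBPF14 lie inside the counted gene, so its value need not describe the start of that gene. The letters TGGGAA, the core recognised by the Notch effector RBPJ, were searched on both strands. They occurred in 24.0% of all windows, in the first of the listed windows of NBPF14 and in no other member's window. The letters CACGNG, bound by HES repressors, also searched on both strands, occurred in 30.5% of all windows and among the members in that window of NBPF14 alone. Neither set of letters contains the other, and a match or its lack describes only these windows.

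Near-identical copies share reads, and how the counting treated a read that matches several copies is not stated in the labels. To see how much this could touch each member, its annotated transcripts (GENCODE 29) were split into windows of 100 bases. NBPF3 and NBPF1 were the most separable members: 96.2% and 91.2% of their windows occurred in no other gene. The copies of the 1q21 region were less so, with 64.6% for NBPF9, 53.8% for NBPF15, 51.9% for NBPF12, 45.1% for NBPF11, 29.7% for NBPF14 and 22.3% for NBPF10. NBPF10 had 61.8% of its windows in NBPF14, and NBPF11 had 41.0% in NBPF12, as in the pairing of the start regions. NBPF1 and NBPF3 pair by their start regions, but only 0.542% of the windows of NBPF1 occurred in NBPF3. The closest copy of NBPF9 by windows was NBPF14 (19.0%), not NBPF15. With windows of 50 bases the unique share was 13.2% for NBPF10 and 79.0% for NBPF1, lower in both. NBPF10 also overlaps, on the same strand, another annotated protein-coding gene (ENSG00000213240, RP11-458D21.5) that had 0 counts in all 6 libraries. Outside the members, NBPF19 had 33.0% of its windows in NOTCH2NL itself. Values of the 6 copies of the 1q21 region are therefore uncertain as single genes.

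**Figure D1:**
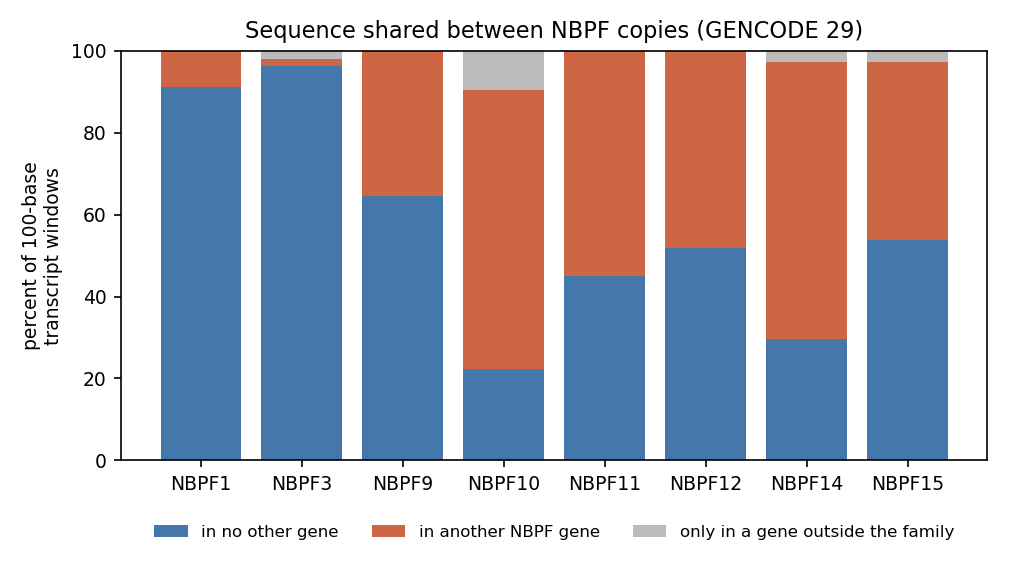
Percent of the distinct 100-base windows of each member's annotated transcripts (y axis) that occur in no other gene, in another NBPF gene, or only in a gene outside the family. NBPF1 and NBPF3 stand at 91.2% and 96.2% in no other gene, and NBPF10 and NBPF14 at 22.3% and 29.7%.

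The comparison of KO with WT asked how the level of each NBPF gene differed between organoids labelled KO and WT NOTCH2NL. Of the members, NBPF10 lies 1.40 kb from the NOTCH2NL row and the other 1q21 copies 710 to 2830 kb from it. NBPF1 and NBPF3 lie on the short arm, far from it. NBPF1 was higher in KO by 1.74-fold, and it was the only one of the 8 members that passed the test. The other 7 did not pass, 6 of them with a log2 fold change at or above 0 and NBPF3 below 0. Among all 16956 tested genes 5.5% were called, 2.31% higher and 3.19% lower in KO. A log2 fold change above 0 was found for 7 of 8 members and for 49.3% of tested genes. An unadjusted p under 0.05 was found for 3 of 8 members (NBPF1, NBPF11 and NBPF14), all higher in KO, and for 22.8% of tested genes, or 10.7% counting only those higher in KO. Members that share reads are not independent in these counts. The members' median log2 fold change was 0.35, against 0.0 over all tested genes, whose middle 80% ran from -0.52 to 0.45.

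NBPF1 (ENSG00000219481; GRCh38 chromosome 1, 16562319 to 16613562, minus strand, on the short arm) had 412, 346 and 341 counts in WT 1 to 3 and 668, 566 and 708 in KO 1 to 3. In CPM these were 26.7, 21.1 and 22.6 in WT and 43.4, 36 and 43.3 in KO. All KO libraries lay above all WT libraries, with no overlap. The means were 23.5 ± 2.90 and 40.9 ± 4.27 CPM (SD, n = 3), a log2 fold change of 0.80 ± 0.13 (edgeR quasi-likelihood, adjusted p = 0.00701). In the authors' deposited table the log2 fold change of NBPF1 was 0.74, with an adjusted p of 1.28e-05. NBPF1 was also the single member called in the authors' deposited table, which calls 7.38% of its genes, 3.23% higher in KO. Without WT 3 the NBPF1 call was lost (edgeR adjusted p = 0.0606, log2 fold change 0.78).

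NBPF3 (ENSG00000142794; chromosome 1, 21440128 to 21485005, plus strand), the other short-arm member and the one whose start region pairs with that of NBPF1, had 271, 197 and 218 counts in WT and 175, 220 and 189 in KO. Its CPM were 17.6, 12 and 14.5 in WT and 11.4, 14.0 and 11.6 in KO, so the groups overlapped. Its log2 fold change was -0.25 ± 0.17 (edgeR adjusted p = 0.422), and -0.10 without WT 1 (adjusted p = 0.763). The ratio of NBPF1 to NBPF3 counts within a library, a comparison chosen after their values were seen, was 1.52, 1.76 and 1.56 in WT and 3.82, 2.57 and 3.75 in KO. The ratios did not overlap, with means of 1.61 ± 0.126 and 3.38 ± 0.699 (SD, n = 3) and a log2 difference of 1.05. The exact two-sided permutation test gave p = 0.1, the smallest that 3 against 3 libraries allow.

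**Figure D2:**
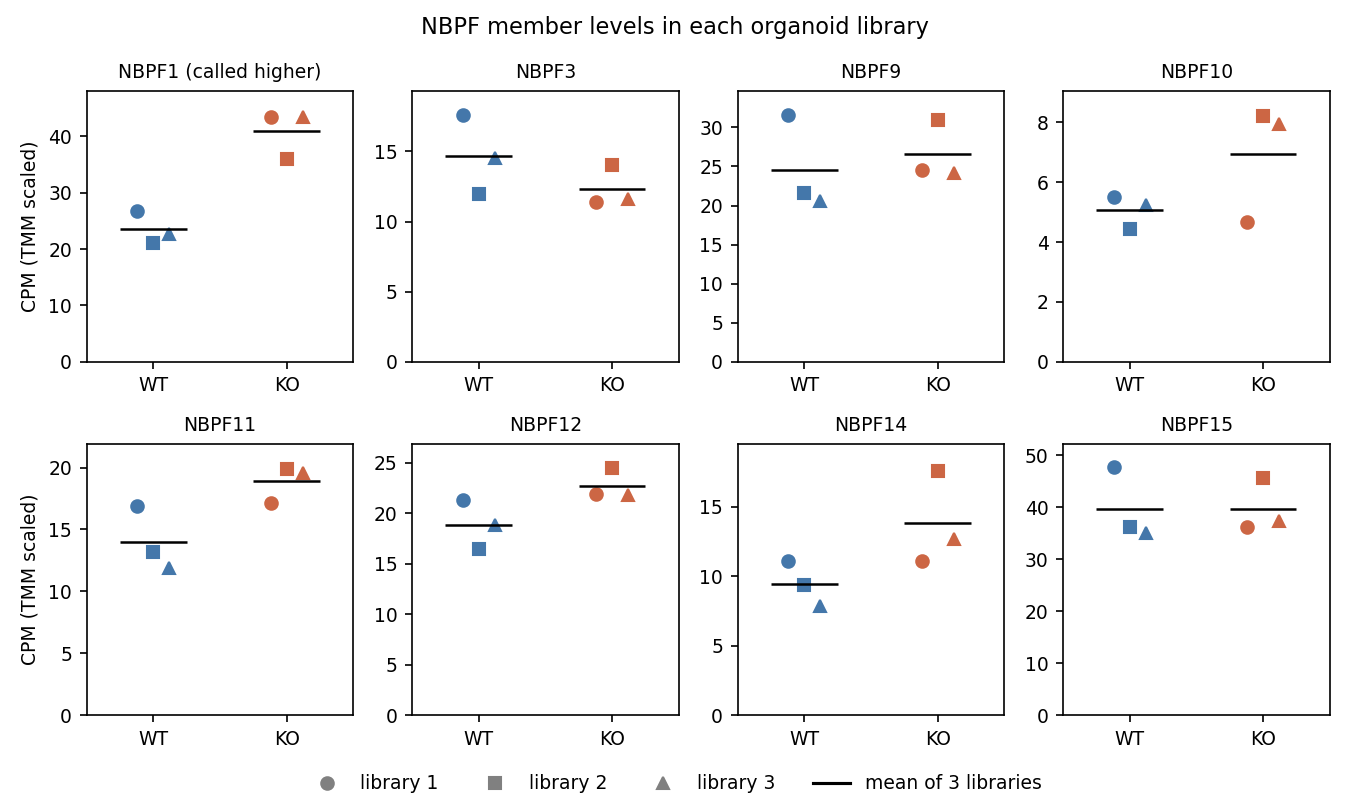
CPM with TMM scaling (y axis, from 0) of each member in the 3 WT and 3 KO libraries (points, with a symbol per library number) and the mean of each group (bar). The KO libraries of NBPF1 stand at 36 to 43.4 CPM, above the WT libraries at 21.1 to 26.7, and the groups of NBPF3, NBPF9, NBPF10, NBPF14 and NBPF15 overlap.

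NBPF11 and NBPF12, partners by sequence, came next among the members with no overlap between groups. NBPF11 (ENSG00000263956; chromosome 1, 148102046 to 148152322, minus strand) stood at 16.9, 13.2 and 11.9 CPM in WT and 17.1, 19.9 and 19.6 CPM in KO. NBPF12 (ENSG00000268043; chromosome 1, 146938744 to 146996202, plus strand) stood at 21.3, 16.5 and 18.8 CPM in WT and 21.9, 24.5 and 21.8 CPM in KO. In both genes every KO library lay above every WT library, WT 1 only just below the lowest KO library. With NBPF1 that made 3 of 8 members with this order, against 14.1% of tested genes. No member had all KO libraries below all WT libraries, an order found in 14.8% of tested genes. Neither gene passed: the log2 fold changes were 0.43 ± 0.16 (edgeR adjusted p = 0.142) and 0.27 ± 0.13 (0.252). NBPF11 passed when WT 1 was left out (edgeR adjusted p = 0.0375).

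NBPF10 (ENSG00000271425; chromosome 1, 146064699 to 146144804, minus strand) lies 1.40 kb from the NOTCH2NL row of the table, the nearest of the members to it. NBPF14 (ENSG00000270629; chromosome 1, 148531385 to 148679751, minus strand) is its closest copy. NBPF10 had 85, 73 and 79 counts in WT and 72, 129 and 130 in KO. In CPM, KO 1 at 4.68 lay among the WT libraries (5.51, 4.45 and 5.24), and KO 2 and KO 3 at 8.20 and 7.95 lay above them. Its level went from 5.07 ± 0.551 to 6.94 ± 1.96 CPM (SD, n = 3), and the log2 fold change of 0.46 ± 0.25 missed the threshold (edgeR adjusted p = 0.301). NBPF14 stood at 11.1, 9.38 and 7.89 CPM in WT and 11.1, 17.6 and 12.7 CPM in KO. WT 1 and KO 1 were level, and the other KO libraries lay above the other WT libraries. Its log2 fold change was 0.54 ± 0.21 (edgeR adjusted p = 0.151), and it passed with no filter on low counts (adjusted p = 0.0460). Without KO 2 the NBPF14 value was 0.33 (adjusted p = 0.381).

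NBPF15 and NBPF9, whose start regions pair, showed small differences between the groups. NBPF15 (ENSG00000266338; chromosome 1, 144421386 to 144461674, minus strand), the member with the most reads, had 736, 594 and 527 counts in WT and 555, 718 and 612 in KO. Its means were 39.6 ± 7.02 and 39.7 ± 5.17 CPM (SD, n = 3), a log2 fold change of 0.00 ± 0.14 (edgeR adjusted p = 0.993). NBPF9 (ENSG00000269713; chromosome 1, 149054027 to 149103561, minus strand) stood at 31.6, 21.6 and 20.6 CPM in WT and 24.6, 31.0 and 24.2 CPM in KO. Its log2 fold change was 0.11 ± 0.18 (edgeR adjusted p = 0.755). In both genes WT 1 was the highest of all 6 libraries and KO 2 the next, and the groups overlapped. A missed threshold in 3 against 3 libraries does not show that these levels were equal.

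**Figure D3:**
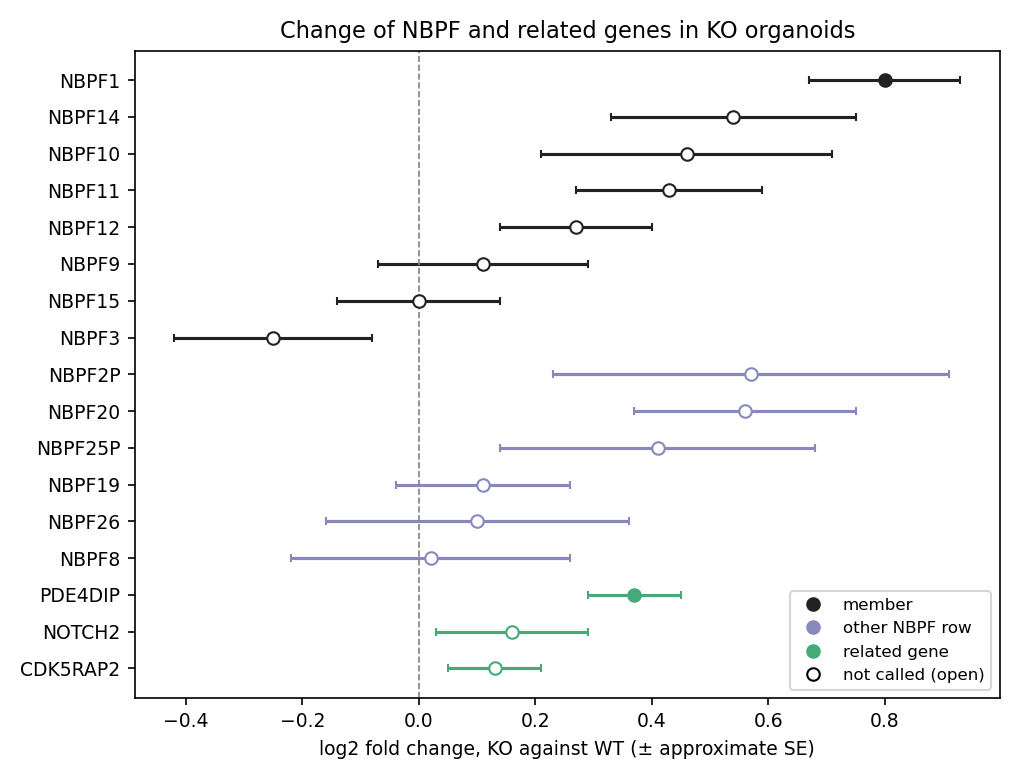
Log2 fold change of KO against WT (x axis) with its approximate standard error (bars) for the members, the other tested NBPF rows and related genes. Filled points passed the test: NBPF1 at 0.80 and PDE4DIP at 0.37, while NBPF3 at -0.25 is the lowest point.

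The members varied among libraries of one group in a shared way. WT 1 was the highest of the 3 WT libraries for 8 of 8 members, where it was so for 37.6% of tested genes. KO 2 was the highest of the 3 KO libraries for 7 of 8 members, all but NBPF1, against 33.5% of tested genes. Pearson correlations of log2 CPM over the 6 libraries, a description of libraries that share their depth and group, ran from 0.44 to 0.96 over the 15 pairs of 1q21 copies (median 0.73), highest for NBPF9 with NBPF15. The 7 pairs with NBPF1 ran from -0.45 (with NBPF3) to 0.83 (with NBPF11), with a median of 0.53. The 7 pairs with NBPF3 ran from -0.45 (with NBPF1) to 0.71 (with NBPF15), with a median of 0.05. Copies that share reads are not independent in these correlations, and pairs of genes outside the members were not examined for comparison.

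**Figure D4:**
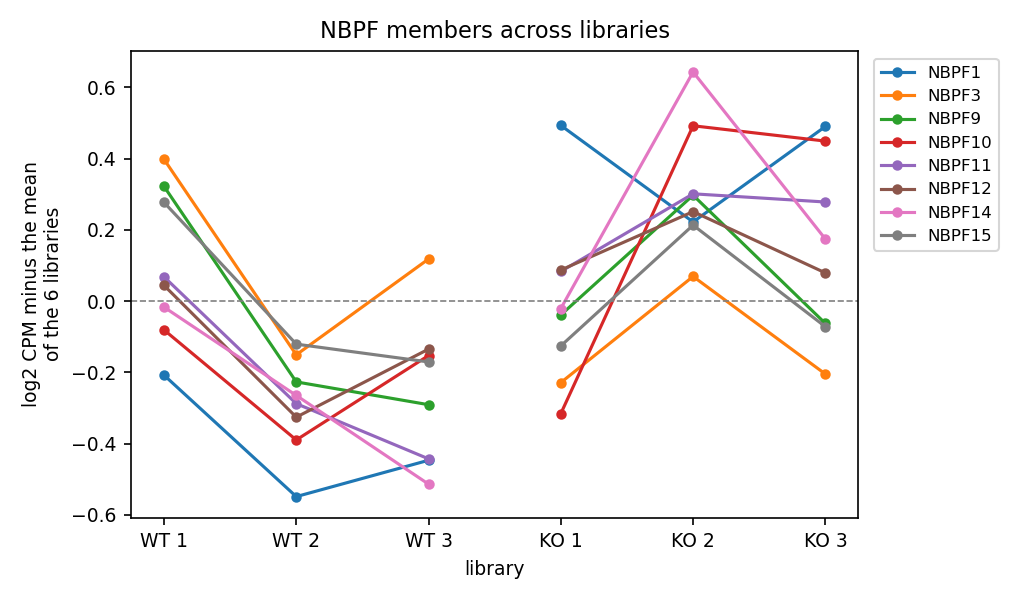
Log2 CPM of each member minus its mean over the 6 libraries (y axis) in each library (x axis); lines only join the points of a gene within a group and the libraries have no order. WT 1 is the highest WT library for 8 of 8 members, and KO 2 the highest KO library for 7 of 8.

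A sum over copies depends less on how reads were split among them. It still leaves out reads given to other NBPF rows or not counted. The 8 members together held 2752, 2205 and 2057 counts in WT and 2619, 3097 and 2918 in KO. In CPM the sum was 149.7 ± 24.8 in WT and 181.9 ± 13.6 in KO (SD, n = 3), a ratio of 1.21, and WT 1 at 178.3 CPM lay above KO 1 at 170.2 CPM. Without NBPF15, the member with the most reads, the sum was 110.1 ± 17.9 and 142.1 ± 8.56 CPM. The groups then did not overlap, with WT 1 at 130.6 CPM just below KO 1 at 134.2 CPM. The 6 copies of the 1q21 region summed to 111.6 ± 19.5 and 128.6 ± 16.3 CPM, and the groups overlapped. NBPF1 and NBPF3 together summed to 38.1 ± 5.66 and 53.2 ± 2.82 CPM, without overlap. That rise was the rise of NBPF1, since NBPF3 alone had a lower mean in KO (14.7 and 12.3 CPM) and overlapped. Over all 22 NBPF rows the sums were 216.4 ± 39.3 and 254.5 ± 26.1 CPM, a ratio of 1.18, and the groups overlapped. None of these sums was tested. NBPF1 made up 15%, 15.7% and 16.6% of the members' reads in WT and 25.5%, 18.3% and 24.3% in KO. NBPF15 made up 26.7%, 26.9% and 25.6% in WT and 21.2%, 23.2% and 21% in KO.

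Levels of different members were compared per length, as RPKM over the union of annotated exons. In WT, NBPF15 was highest at 7.47 ± 1.32 RPKM (SD, n = 3), above all others in every library. NBPF9 (2.72 ± 0.669), NBPF12 (2.59 ± 0.330), NBPF11 (2.35 ± 0.439), NBPF3 (2.15 ± 0.409) and NBPF1 (1.92 ± 0.238) followed, and neighbours in that order differed by less than their spread. NBPF14 (0.782 ± 0.134) and NBPF10 (0.382 ± 0.0416) were lowest, below NBPF1 and apart from each other by more than their spread. In KO, NBPF15 stood at 7.48 ± 0.973 RPKM and NBPF1 at 3.35 ± 0.350, now the next in order but within its spread of NBPF11 at 3.17 ± 0.257 and NBPF12 at 3.13 ± 0.213. NBPF10 and NBPF14 are the copies with the smallest unique share, which moves with this order. Per kilobase of windows found in no other gene, a measure added after the data were seen, NBPF15 was again highest in WT at 12.9 CPM, NBPF14 and NBPF10 stood at 4.08 and 3.84, beside NBPF9 at 3.97, and NBPF1 and NBPF3 were lowest at 2.18 and 2.04.

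Of the 14 other NBPF rows, 6 were tested. With edgeR 0 passed, against 5.5% of tested genes, and 0 passed in the authors' deposited table. All 6 had a log2 fold change above 0, against 49.3% of tested genes, from 0.02 to 0.57 (edgeR adjusted p = 0.113 to 0.980). Only NBPF20 had an unadjusted edgeR p under 0.05 (0.0135), against 22.8% of tested genes. Rows that share windows with the members are not independent of them. NBPF20 was the nearest to the threshold: 6.03, 5.30 and 4.71 CPM in WT and 7.67, 8.45 and 7.46 in KO, without overlap (0.56 ± 0.19, edgeR adjusted p = 0.113). NBPF2P, a pseudogene with few reads, did not overlap either, at 0.778 to 1.19 CPM in WT and 1.28 to 1.69 in KO. That order was found in 14.1% of tested genes. NBPF8, annotated as a pseudogene, was as abundant as the larger members, at 46.3, 24.9 and 29.4 CPM in WT and 31.5, 41.0 and 29.1 CPM in KO (0.02 ± 0.24), again highest in WT 1. NBPF19, at 14.0 ± 0.286 and 15.1 ± 2.56 CPM, and NBPF26, at 9.90 ± 2.23 and 10.6 ± 3.83 CPM, overlapped between groups. Of the 8 rows that were not tested, 5 had 0 counts in all 6 libraries, among them NBPF4, NBPF5P and NBPF7, and NBPF6 had 1 count in all.

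Of the related centrosomal genes, PDE4DIP was higher in KO. PDE4DIP (ENSG00000178104; chromosome 1, 148808181 to 149048286, plus strand) lies 5.74 kb from NBPF9 and is its nearest tested neighbour on that side. It stood at 50.4, 53.0 and 53.3 CPM in WT and 66.6, 66.0 and 69.5 CPM in KO, without overlap. Its log2 fold change was 0.37 ± 0.08 (edgeR adjusted p = 0.0317), a call that leaving out any single library other than WT 1 removed (adjusted p up to 0.110). It was also lost without WT 1 and KO 3 (adjusted p = 0.0656). In the authors' deposited table the log2 fold change of PDE4DIP was 0.35, with an adjusted p of 0.0176. CDK5RAP2 stood at 139 ± 9.80 and 152 ± 5.86 CPM (0.13 ± 0.08, edgeR adjusted p = 0.369). NOTCH2 stood at 0.16 ± 0.13 (adjusted p = 0.491).

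Apart from PDE4DIP, the nearest tested protein-coding neighbours mostly did not pass. Beside NBPF1, NECAP2 had a log2 fold change of 0.02 ± 0.12 and CROCC, a ciliary rootlet protein gene, -0.07 ± 0.13 (edgeR adjusted p = 0.947 and 0.801). Beside NBPF3, the endothelin-converting enzyme gene ECE1 stood at -0.36 ± 0.11 (adjusted p = 0.0764) and the alkaline phosphatase gene ALPL at 0.32 ± 0.31. TXNIP, a thioredoxin-binding protein gene on the lower-coordinate side of NBPF10 at 68.1 kb, fell by 1.11 ± 0.09 on the log2 scale (edgeR adjusted p = 1.73e-04). PRKAB2, GPR89B, HIST2H2BE, FAM72C and SRGAP2B stood at -0.30, -0.03, 0.18, 0.04 and 0.01 and did not pass. They lie far from the members, from 109 kb (GPR89B from NBPF11) to 1010 kb (PRKAB2 from NBPF10). FAM72C had few reads, at means of 0.615 CPM in WT and 0.634 in KO. The genes whose log2 CPM over the 6 libraries was most like that of the members' sum were SMAD9, SKI and SMN1 (Pearson r = 0.9938, 0.9936 and 0.9898 of 16878 genes), a description over libraries that share depth and group. SMN1 itself has a near-identical copy.

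Markers of some other cell types differed between the groups, while the sums of other lists overlapped. In these bulk samples fewer cells of a type and less RNA per cell cannot be told apart. Of 6 tested ventral telencephalon markers 4 rose (DLX1, DLX2, DLX5 and ISL1), and the summed level of the 7 listed was 34.7 to 70.3 CPM in WT and 220.3 to 368.8 in KO. Of the 4 cycling genes CCNB1 rose, and their sum was 525 to 822 CPM in WT and 900 to 1049 in KO. Of the 4 choroid plexus and hem genes MSX1 and BMP7 rose, and their sum was 283 to 2171 CPM in WT, lowest in WT 1, and 1426 to 4261 in KO, highest in KO 2. The sum of 7 cortical progenitor genes (EMX2, PAX6, LHX2, SOX2, HES1, VIM and NES) was lower in KO without overlap, at 4336 to 4595 CPM in WT and 3449 to 4201 in KO. Single genes of this list went both ways, with log2 fold changes from -0.34 (EMX2) to 0.42 (PAX6), so the sum does not stand for each gene. With edgeR 0 of these 7 passed (adjusted p = 0.121 to 0.940), and 1 had an unadjusted p under 0.05. The sum of the 8 neuron genes overlapped (2680 to 3291 and 2551 to 3584 CPM), and TUBB3 was lower. Of the mesenchyme and neural crest genes PDGFRB was higher and LUM lower, and the list summed to 34.0 to 46.0 CPM in WT and 28.0 to 50.6 in KO. The endothelium and blood genes summed to 1.33 to 2.74 CPM in WT and 3.38 to 5.53 in KO, without overlap. These levels were low, and of the 2 genes that could be tested 0 passed. The sums of the hindbrain and midbrain genes (75.9 to 175.8 and 34.5 to 111.0 CPM), the intermediate progenitor genes (68.1 to 88.8 and 56.1 to 127.5) and the surface epithelium genes (6.22 to 8.49 and 6.31 to 11.5) overlapped. The 4 pluripotency genes summed to 0.648 to 3.72 CPM in WT and 1.59 to 4.28 in KO, with TDGF1 at 0 in all libraries. The part of these shifts in the NBPF1 difference was not tested.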

How the data were processed

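The authors deposited raw counts per Ensembl gene for 6 human libraries, and a table of their own comparison which, per the file headers, holds normalized values (treated as a score), a Wald score, log2 fold changes, p-values and adjusted p-values. Per the submitters' processing notes, the tools were DESeq2 2.11.39, HTSeq 0.6.1p1, STAR 2.4.0, Bowtie2 2.3.3.1 and Trimmomatic 0.36, with GRCh38 (hg38), and no roles are given; strand setting and read length are not given in the sources used here. Symbols came from the authors' deposited table; in it, normalized columns of replicates 1 and 3 follow raw columns 3 and 1 of the same group (SD of the log2 ratio 0.0008 against at least 0.2125 for columns of the same name), and raw column numbers are used.

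Counts were tested as deposited with edgeR 4.0.16 in R 4.3.3: filterByExpr, TMM factors, and the robust quasi-likelihood F test of KO against WT with no other term, Benjamini-Hochberg adjusted over 16956 genes, threshold 0.05. This procedure was tested on simulated data. Standard errors are the fold change over the square root of F. Levels are CPM. Coordinates and exon lengths came from GENCODE 29, start regions from RefSeq (all 8 members matched). No 2 libraries of a group agreed within sampling noise (chi-square per degree of freedom at least 8.56). Alternatives were RLE factors, library size alone, DESeq2 1.42.0, other filters, a replicate block and leaving out libraries. The mouse tables were not used here, and 1 listed marker gene is not reported here. The members, gene lists and tests were chosen with earlier results of these data known. Named were all members, other NBPF rows, NOTCH2NL, NOTCH2, PDE4DIP, CDK5RAP2, nearest tested coding neighbours and the 3 genes most like the sum.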

Additional observations from a re-analysis of the deposited data

How the results depend on the processing

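With 3 libraries a group, the number of genes called (932) moved to 2155 with no filter on low counts and to 2041 without WT 1 and KO 3, an alternative chosen after seeing the data; leaving out 1 library gave 224 (without WT 3), 251 (KO 1), 499 (WT 2), 506 (KO 2), 526 (KO 3) and 1440 (WT 1), each over 1.5 times away. The split of the calls, 391 higher and 541 lower, was 454 and 455 with library size alone and 431 and 468 with the replicate block. The number of members called (1) was 2 with no filter (NBPF1 and NBPF14), 2 without WT 1 and KO 3 (NBPF1 and NBPF11), and 0 to 2 over the fits with 1 library fewer, namely 0 without WT 3 and 2 without WT 1; the cause was not tested. NBPF1 was called in 12 of 13 alternatives, with log2 fold changes of 0.74 to 0.90 (adjusted p = 8.76e-08 to 0.0606). Leaving out a library turned NBPF15 to as low as -0.11 (range -0.11 to 0.16, below 0 also at -0.05 and -0.08) and NBPF9 to -0.01 (range -0.01 to 0.33); neither was called in any fit. The other members kept their direction in all 13, with ranges over the fits with 1 library fewer of -0.37 to -0.10 for NBPF3, 0.32 to 0.69 for NBPF10, 0.33 to 0.59 for NBPF11, 0.19 to 0.37 for NBPF12 and 0.33 to 0.69 for NBPF14. The log2 ratio of the members' sum was 0.28, 0.21 to 0.43 when 1 library was left out and 0.23 to 0.37 under the other choices. With the replicate number as a block, 899 genes and 1 member (NBPF1, 0.80, adjusted p = 0.00896) were called; the numbers do not pair the libraries (correlations of deviations 0.216, -0.113 and 0.126), and not every library correlated best with its own number. Depth limits the rows with few reads, such as NBPF6, which could not be tested.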
